A study of Mus musculus with 16 samples.

Results

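The ligands BAFF (Tnfsf13b) and APRIL (Tnfsf13) and their receptors TACI (Tnfrsf13b), the BAFF receptor (Tnfrsf13c) and BCMA (Tnfrsf17) were followed in mouse kidney RNA. Members were chosen by gene: every probe of the array whose listed transcript belongs to one of these 5 genes was taken. Of the 5 genes, 4 had a probe, with 6 probes among the 56605 of the array. For Tnfsf13 no probe was matched to a transcript, so APRIL was not analysed here. A probe entered the tests when 4 or more of the 16 arrays showed it well above background. This left 3 of the 6 probes, 1 each for Tnfsf13b (gene ID 24099, chromosome 8, probe A_51_P257934), Tnfrsf13b (gene ID 57916, chromosome 11, probe A_55_P1981972) and Tnfrsf13c (gene ID 72049, chromosome 15, probe A_51_P457187). Tnfrsf17 (gene ID 21935, chromosome 16, probe A_51_P270807) was measured but not tested.

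BAFF and APRIL are ligands of the tumour necrosis factor (TNF) family. Myeloid and stromal cells are well known sources of BAFF, and its receptors sit mainly on cells of the B lineage. Binding to the BAFF receptor keeps mature B cells alive, in good part through TRAF3 and the non-canonical NF-kappaB pathway of NIK, p100 and RelB. TACI binds both ligands and restrains B-cell expansion, and BCMA sustains long-lived plasma cells. Excess BAFF drives lupus-like disease in mice, and interferons are known inducers of BAFF in myeloid cells.

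The study asked what the loss of STING, an adaptor of cytosolic DNA sensing that leads to type I interferon, does to lupus in mice without the inhibitory Fc receptor FcγRIIb. One-color arrays measured total RNA of the whole kidney, 1 mouse per array and 4 mice per genotype, all 6 months old: wild-type (labelled WT), Fcgr2b-/- (labelled Fcgr2b-ko and called the lupus mouse), double-deficient Fcgr2b-/-.Sting gt/gt (labelled Fcgr2b-ko, Sting-ko), and Sting gt/gt (labelled Sting-ko). The labels name no treatment. The Sting gt, or Goldenticket, allele is a point mutation that behaves as a functional knockout in every cell of the body, and Fcgr2b is likewise absent in the whole animal. Wild-type and Sting gt/gt mice were labelled C57BL/6, whereas both Fcgr2b-deficient groups were labelled 129/C57BL/6, so that strain background and Fcgr2b genotype cannot be told apart. In the study's expression plots the lupus group is named as heterozygous for Sting, which the sample labels do not state.

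Levels are given as log2 of the spot intensity relative to the array's 75th percentile, so that a difference of 1 is a 2-fold change. The levels of different probes were not compared with each other. Arrays had 28443 to 35566 probes well above background. As a check of the tissue, all 12 kidney marker genes listed were measured, and their mean level lay between 4.14 and 5.06 on every array. At the brighter of 2 Fcgr2b probes, the level was 1.14 to 2.13 in wild-type, 0.024 to 0.70 in Fcgr2b-/-, -0.40 to 0.50 in double-deficient and -0.19 to 1.54 in Sting gt/gt kidneys. Both Fcgr2b-deficient groups thus lay below every wild-type kidney but overlapped with Sting gt/gt. Both Fcgr2b probes were above background on every array, the deficient ones included. Whether the probes lie in the deleted part of the gene is not given in the sources used here. Since the Goldenticket allele is a point mutation, the Sting probe does not check that genotype.

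The promoters of the members are of interest because interferon-induced genes were a readout of the study. In RefSeq windows of 300 bases (250 before to 50 after a transcription start, build GRCm38.p6, available for all 5 genes), the core of the interferon-stimulated response element, GAAA, any 2 bases and GAAA again, on either strand, was found in the windows of Tnfsf13b and Tnfrsf17. Among all 32851 such windows of the genome, 3.44% held it. Of the 28 interferon-induced genes listed, 21 had a window and 12 of those held the core. The match of Tnfsf13b begins 16 bases before the downstream of its 2 annotated starts. The windows below show the 2 members with a match, 1 interferon-induced gene whose core has the same letters as that of Tnfsf13b (Cxcl10), and 1 gene (Slamf8) whose level followed that of Tnfsf13b closely across mice. They were chosen after the values had been seen, and Slamf8 is the 1 of 4 such genes with a window that holds the core. Of the 13 macrophage and monocyte genes listed, 9 had a window and 0 held it. Each is printed 5′ to 3′ along the gene, with the match in capitals.
Tnfsf13b, chr8:10006607-10006636, plus strand: tacaaaaactGAAAGTGAAAtgcggaaggc
Cxcl10, chr5:92349083-92349112, minus strand: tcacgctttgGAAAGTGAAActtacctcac
Slamf8, chr1:172590564-172590593, minus strand: cccgggatgcTTTCGCTTTCaagacatctt
Tnfrsf17, chr16:11313698-11313727, plus strand: aaataggtggTTTCTGTTTCaggaatagtt
In Slamf8 and Tnfrsf17 the core runs on the strand opposite to the gene. Neither the gamma-activated site TTCNNNGAA (8.30% of windows) nor the kappaB motif (8.46% of windows) was found in a window of the 5 members. The 3 motifs were searched separately on both strands, so that matches of different motifs could share bases. A match describes letters only and does not show binding.

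BAFF, the ligand, differed more between mice of one genotype than between genotypes. The level of Tnfsf13b in the 4 wild-type kidneys was -2.25, -4.53, -4.30 and -3.01, of which the middle pair did not pass background. In the Fcgr2b-/- kidneys it was 0.35, -3.97, -3.45 and -0.47. Replicates 1 and 4 of Fcgr2b-/- were thus higher than all other 14 kidneys, while replicate 3 and replicate 2, which did not pass background, lay within the wild-type range. Double-deficient kidneys had -3.70, -1.86, -2.89 and -3.77, and Sting gt/gt kidneys had -1.42, -2.98, -3.60 and -3.23. All 8 of these passed background, and both groups overlapped with wild-type.

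The mean Tnfsf13b level was -1.88 ± 2.15 (SD, n = 4) in Fcgr2b-/-, -2.81 ± 0.96 in Sting gt/gt, -3.06 ± 0.89 in double-deficient and -3.52 ± 1.08 in wild-type kidneys. No neighbours in this order differed by more than their spread. Fcgr2b-/- kidneys exceeded wild-type by 1.64 on the log2 scale (SE 0.87, 95% confidence interval -0.22 to 3.50), which did not pass the limma fit over all 35629 tested probes (adjusted p = 0.9996). The exact two-sided permutation test gave p = 0.257, and 12 of the 16 pairs of an Fcgr2b-/- and a wild-type mouse had the Fcgr2b-/- mouse higher. Without Fcgr2b-/- replicate 1 the difference was 0.89, and without replicate 2 it was 2.33. On slide 1, with 3 Fcgr2b-/- and 2 wild-type arrays, the difference was 2.03, and on slide 2, with 1 against 2, it was 0.20. With the slide as a block it was 1.47.

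Double-deficient kidneys had 1.17 less Tnfsf13b on the log2 scale than Fcgr2b-/- kidneys (-1.17, SE 0.87, interval -3.03 to 0.69, limma adjusted p = 0.9999, exact permutation p = 0.343). Without Fcgr2b-/- replicate 1 the difference was -0.43, and without replicate 2 it was -1.87. Within slides the direction was not shared: -2.34 on slide 1, where a single double-deficient array stood against 3, and 0.61 on slide 2, where 3 stood against 1. With the slide as a block it was -0.83. Sting gt/gt kidneys were 0.71 above wild-type (interval -1.15 to 2.57) and double-deficient kidneys 0.47 above wild-type (interval -1.39 to 2.33), neither past the threshold. The latter difference was -0.31 on slide 1 and 0.81 on slide 2. The interaction, which asks whether losing Sting changed Tnfsf13b differently with and without Fcgr2b, was -1.89 (SE 1.23, interval -4.51 to 0.74, limma adjusted p = 0.663).

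**Figure D1:**
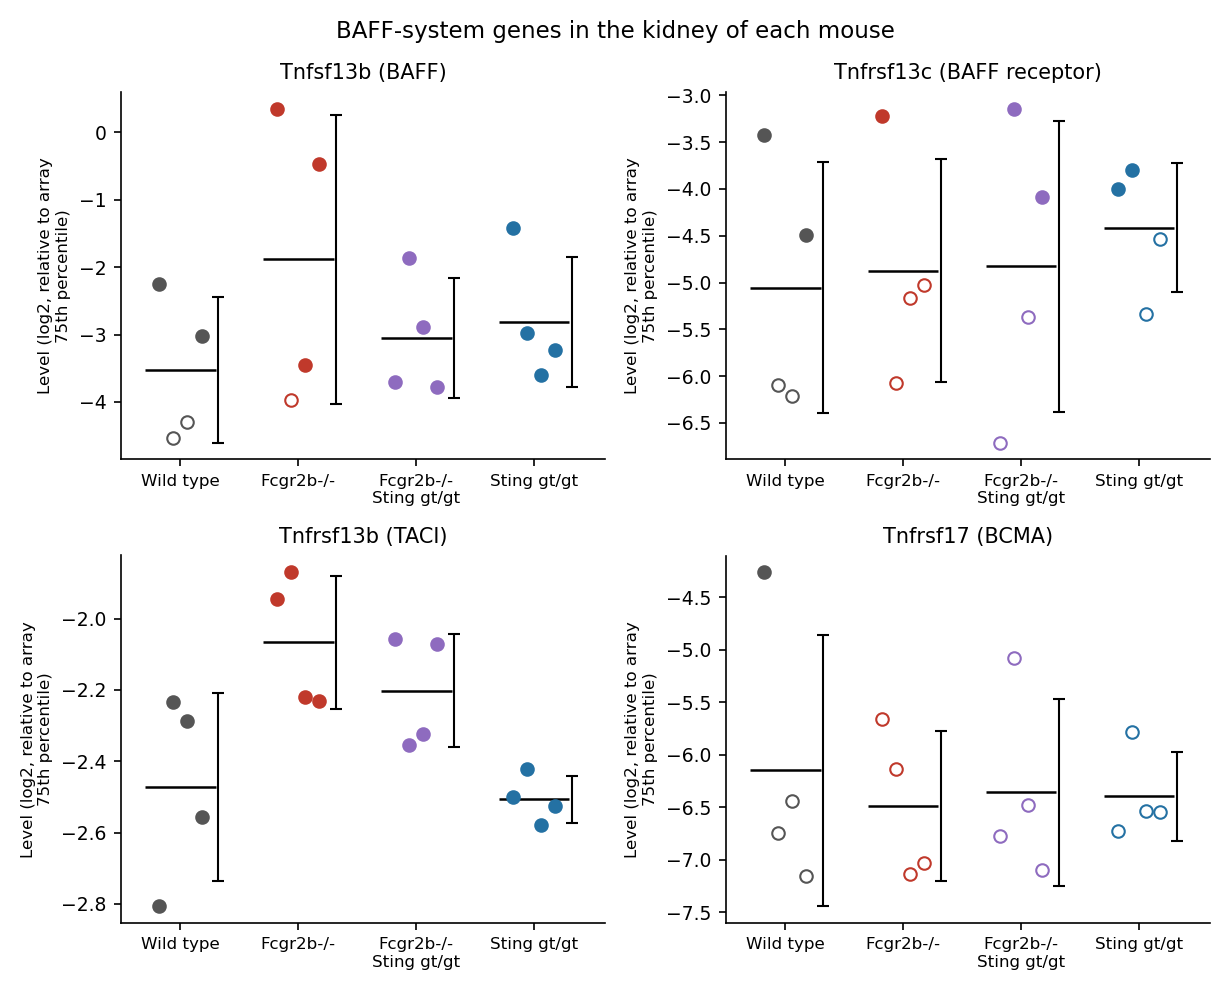
Level of each gene in every kidney, in log2 relative to the array's 75th percentile, by genotype (4 mice each, replicates 1 to 4 from left to right). Filled points were well above background and open points were not, horizontal lines are means and bars are ± 1 SD, and each panel has its own axis. Tnfsf13b was highest in 2 of the 4 Fcgr2b-/- kidneys, and Tnfrsf17 passed background in 1 wild-type kidney.

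At its brighter probe, TACI was above background on all 16 arrays and was the steadiest of the receptors. Its other probe, listed for the same transcript, passed background on no array. The probes thus disagree on whether TACI RNA was detected, and the values that follow are those of the brighter probe. The level of Tnfrsf13b was -2.81, -2.23, -2.29 and -2.56 in wild-type kidneys and -1.94, -1.87, -2.22 and -2.23 in Fcgr2b-/- kidneys. Every Fcgr2b-/- value lay above every wild-type value, though the closest values were -2.23 in both groups. Double-deficient kidneys had -2.06, -2.35, -2.32 and -2.07, and Sting gt/gt kidneys had -2.50, -2.42, -2.58 and -2.53. The double-deficient values overlapped with both Fcgr2b-/- and wild-type.

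Group means of Tnfrsf13b were -2.07 ± 0.19 (SD, n = 4) in Fcgr2b-/-, -2.20 ± 0.16 in double-deficient, -2.47 ± 0.26 in wild-type and -2.51 ± 0.065 in Sting gt/gt kidneys. The difference between Fcgr2b-/- and wild-type was 0.41 on the log2 scale (SE 0.20, interval -0.017 to 0.83, limma adjusted p = 0.9996). The exact permutation test gave p = 0.0286, the smallest that 4 against 4 mice allow. Groups that do not overlap with Fcgr2b-/- higher were seen for 0.62% of all tested probes. With other scalings the groups overlapped: the exact p was 0.314 after quantile normalization, 0.4 after scaling by the median, 0.257 after normexp background correction, and 0.0857 in the table of log2 values that the authors deposited, with differences of 0.31, 0.25, 0.21 and 0.31. Double-deficient kidneys were 0.14 below Fcgr2b-/- (-0.14, interval -0.56 to 0.29), 0.27 above wild-type (interval -0.15 to 0.69), and Sting gt/gt kidneys differed from wild-type by -0.036 (interval -0.46 to 0.39). The interaction was -0.10 (SE 0.28, interval -0.70 to 0.50). Within slides 1 and 2, Fcgr2b-/- kidneys were 0.51 and 0.20 above wild-type. The second Tnfrsf13b probe never passed background and lay between -7.53 and -5.23.

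The BAFF receptor was close to the detection limit. Its brighter probe passed background on 7 of the 16 arrays. Tnfrsf13c was at -3.42, -6.10, -6.21 and -4.49 in wild-type kidneys, with replicates 1 and 4 above background. It was at -3.22, -6.08, -5.16 and -5.02 in Fcgr2b-/- kidneys, with replicate 1 alone above background. In the double-deficient group it was at -6.71, -3.14, -5.37 and -4.08, with replicates 2 and 4 above background, and in Sting gt/gt at -4.00, -3.79, -5.34 and -4.53, with replicates 1 and 2 above background. Each genotype thus held kidneys with and without a detectable signal.

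The 4 group means of Tnfrsf13c, from -5.06 ± 1.35 in wild-type to -4.42 ± 0.69 in Sting gt/gt kidneys, differed by less than the spread within groups. Fcgr2b-/- differed from wild-type by 0.18 (SE 0.79, interval -1.50 to 1.87), double-deficient from Fcgr2b-/- by 0.045 (interval -1.64 to 1.73), and Sting gt/gt from wild-type by 0.64 (interval -1.05 to 2.33). The exact permutation p of these comparisons was 0.857, 0.971 and 0.4. These intervals include both more than 2-fold higher and more than 2-fold lower levels, so a change of that size could not have been detected. The difference between Fcgr2b-/- and wild-type turned to -0.25 with quantile normalization and -0.18 in the authors' table, and it ranged from -0.37 without Fcgr2b-/- replicate 1 to 0.73 without wild-type replicate 1. Within slides 1 and 2 it was -0.015 and 0.19. Both comparisons of the double-deficient group turned sign between the slides, from -1.94 to 0.96 against Fcgr2b-/- and from -1.95 to 1.15 against wild-type, with 1 double-deficient array on slide 1 and 3 on slide 2.

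BCMA, the receptor of plasma cells, was detected in 1 kidney. Tnfrsf17 stood at -4.26 in wild-type replicate 1 and did not pass background on the other 15 arrays, where it lay between -7.15 and -5.08. The second Tnfrsf13c probe did not pass background on any array (-7.46 to -5.36). The lowest level of any probe above background on an array ranged from -5.59 to -4.20. It is not a cutoff: Tnfsf13b at -3.97 in Fcgr2b-/- replicate 2, where it was -4.20, did not pass. Values that did not pass background have no order, and no fold is given for Tnfrsf17.

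No member was called in any of the 5 comparisons, where a call required an adjusted p under 0.05 and at least a 2-fold change. Of all 35629 tested probes, 18 (0.0505%) were called between Fcgr2b-/- and wild-type, 17 higher and 1 lower. This count rests on single mice: leaving out Fcgr2b-/- replicate 2 raised it to 37, leaving out Fcgr2b-/- replicate 1 lowered it to 3, and it fell to 0 when any of Fcgr2b-/- replicate 4 and wild-type replicates 2, 3 and 4 was omitted. Some mice share the first number of their animal label, whose meaning is not given: 88 and 89 each mark 1 Fcgr2b-/- and 1 double-deficient mouse, and 114 marks 2 wild-type mice. With that number as a random block (correlation 0.83) 3 probes were called. In the other 4 comparisons the call rate was 0%. At an unadjusted p under 0.05, which no member reached either, the share was 1.81% between double-deficient and Fcgr2b-/-, 3.76% between Sting gt/gt and wild-type, 0.424% between double-deficient and wild-type and 6.27% for the interaction, with 3.35% between Fcgr2b-/- and wild-type.

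**Figure D2:**
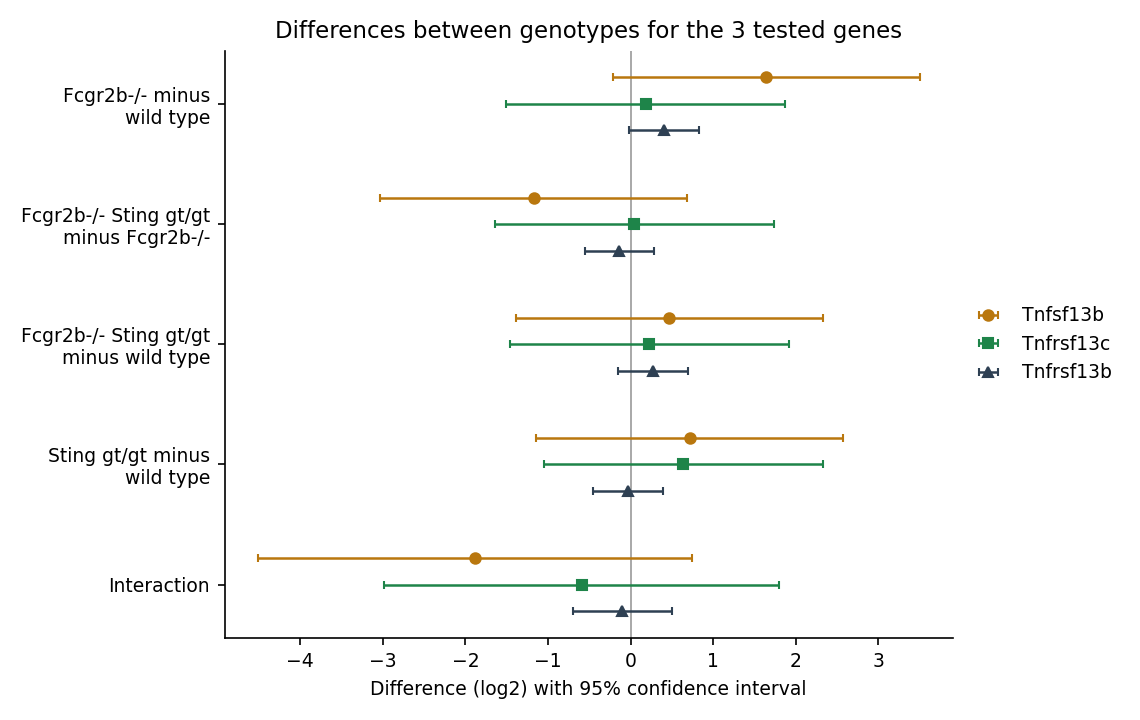
Differences in log2 level between genotypes for Tnfsf13b, Tnfrsf13c and Tnfrsf13b from the limma fit, as points with 95% confidence intervals, the interaction being the Sting effect with Fcgr2b absent minus that with Fcgr2b present. All 15 intervals include 0, and those of Tnfsf13b and Tnfrsf13c are several times wider than those of Tnfrsf13b.

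Across mice of the same genotype, Tnfsf13b moved with the macrophage and interferon-induced genes, and Tnfrsf13c, where few values were above background, with B-cell genes. For each list the mean level of its tested genes was taken per array, and the genotype means were removed from both sides, so that only differences between mice of one genotype remained. There were 15 such relations, of the 3 tested members to 5 lists. They were tested by 100000 permutations within genotypes and adjusted over the 15. In bulk tissue, fewer cells of a type and less RNA per cell cannot be told apart. The kidney marker mean was lowest of its genotype in wild-type replicate 1 (4.26), Fcgr2b-/- replicate 1 (4.22) and double-deficient replicate 2 (4.14). These mice had the highest Tnfsf13b and Tnfrsf13c of their genotypes. In Sting gt/gt the mean was 4.54 in replicate 1, highest in Tnfsf13b, and lowest in replicate 3 (4.24). In Fcgr2b-/- replicate 4, also high in Tnfsf13b, it exceeded that of replicate 3 (4.71). Whether the relations depend on this mean was not tested. According to the study the kidneys were not perfused, so RNA of blood left in them cannot be told apart from that of the tissue.

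Tnfsf13b followed the 13 macrophage and monocyte genes with r = 0.97 over 16 mice (rho = 0.96, permutation p = 7e-05 for r, adjusted p = 0.0005). Without the 2 arrays farthest from the median, r was 0.96. With genotype means removed, the list means fell into 2 clusters, with 5 arrays above a gap from -0.058 to 0.82. Among the 11 arrays below it r was 0.92 (rho = 0.91, permutation p = 2e-05). This split was made after the values had been seen. Its permutations shuffled the 11 arrays freely and not within genotypes, so its p cannot be set beside the others. In Fcgr2b-/- kidneys, the macrophage mean was 4.20 and 3.81 in replicates 1 and 4, whose Tnfsf13b was high, and 1.91 and 1.98 in replicates 2 and 3. In each of the other 3 genotypes, the mouse with the highest Tnfsf13b also had the highest macrophage mean: wild-type replicate 1 (2.46), double-deficient replicate 2 (2.67) and Sting gt/gt replicate 1 (2.51).

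With the 28 interferon-induced genes, Tnfsf13b had r = 0.93 (rho = 0.91, adjusted permutation p = 0.00075, and r = 0.90 without the 2 farthest arrays). The interferon mean was 2.66 and 1.95 in Fcgr2b-/- replicates 1 and 4, and 0.36 and -0.085 in replicates 2 and 3. Within slide 1, r was 0.98 for the macrophage list and 0.95 for the interferon list over 8 arrays, and within slide 2 it was 0.93 and 0.87. On slide 2 the rank correlations were 0.86 and 0.76, which missed the threshold (exact permutation test, adjusted p = 0.0536 and 0.110). With the 4 Fcgr2b-/- arrays left out, it was 0.94 and 0.88. Tnfsf13b also followed how many probes of an array passed background (r = 0.74). After both sides were adjusted for that number, r was 0.94 with the macrophage list and 0.90 with the interferon list.

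The plasma-cell, B-cell and neutrophil lists followed Tnfsf13b less closely. Relations to the T-cell and dendritic-cell lists were not tested. In Fcgr2b-/- replicates 1 and 4 their means were 0.70 and -0.16 (T-cell) and 0.31 and -0.29 (dendritic-cell). In replicates 2 and 3 they were -1.74 and -1.86, and -2.38 and -1.44. In each other genotype both means were highest in the mouse with the highest Tnfsf13b. A tie particular to macrophage and interferon-induced genes is thus not shown. With 8 plasma-cell genes r was 0.80, with 10 B-cell genes 0.64 and with 6 neutrophil genes 0.75 (adjusted permutation p = 0.00145, 0.00145 and 0.0232). With both sides adjusted for the number of probes above background, the plasma-cell, B-cell and neutrophil relations missed the threshold, with r of 0.49, 0.28 and 0.55. Differences between these correlations were not tested.

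Tnfrsf13c followed the B-cell genes with r = 0.89 (rho = 0.90, adjusted permutation p = 0.0005, and r = 0.84 without the 2 farthest arrays) and the plasma-cell genes with r = 0.87. On slide 1 the value for B-cell genes was 0.89, on slide 2 0.91, and after adjustment for the probes above background 0.79. The 3 kidneys with the highest Tnfrsf13c, double-deficient replicate 2, Fcgr2b-/- replicate 1 and wild-type replicate 1, had B-cell means of -1.59, -2.42 and -1.76, each the highest of its genotype. On 9 of the 16 arrays, however, the Tnfrsf13c value itself was not above background and so had no order of its own. With these 9 values tied at the lowest level above background, r was 0.84 with B-cell genes (rho = 0.77, adjusted permutation p = 0.0017) and 0.80 with plasma-cell genes. Over the 7 arrays with a detected value, without removal of genotype means, r was 0.61 and 0.73, and neither passed (exact permutation test, adjusted p = 0.212 and 0.128). Without the 2 farthest of these 7 arrays r with B-cell genes was 0.037, so that among detected values it rests on those 2. Tnfrsf13c also followed the number of probes above background (r = 0.76). Between Tnfrsf13c and Tnfsf13b r was 0.72 (rho = 0.67, adjusted permutation p = 0.00525 over the 3 pairs of members), but after both were adjusted for that number it was 0.36 (adjusted permutation p = 0.731).

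Tnfrsf13b did not follow any list past the threshold. Its r was negative with all 5 lists, from -0.65 with plasma-cell genes (adjusted permutation p = 0.0755) to -0.39 with interferon-induced genes, and -0.56 with B-cell genes. It was also negative with the number of probes above background (r = -0.63). After adjustment for that number the values lay between -0.29 and -0.014.

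**Figure D3:**
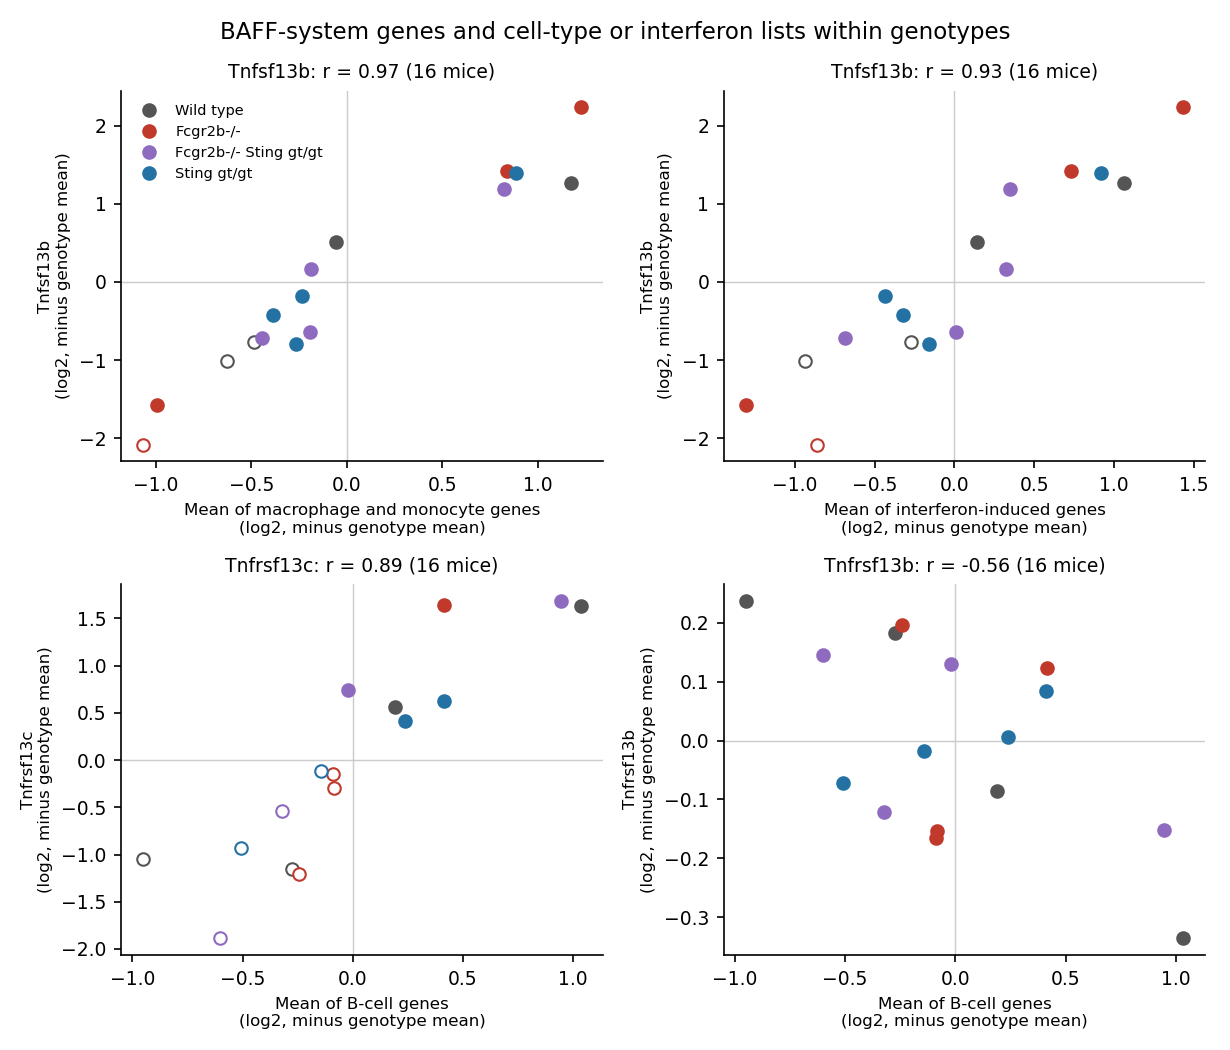
Level of a member against the mean of a gene list in each of 16 kidneys, both in log2 with the genotype mean subtracted, colored by genotype, with open points where the member was not well above background. Tnfsf13b rises with macrophage and interferon-induced genes (r = 0.97 and 0.93), Tnfrsf13c rises with B-cell genes (r = 0.89, 9 of 16 points open), and Tnfrsf13b does not (r = -0.56).

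Among the 16388 other named genes with a tested probe, the 5 most like Tnfsf13b within genotypes, by Pearson's r over 16 mice, were Sash3 (0.99), C1ra (0.98), Slamf8 (0.98), Il27ra (0.98) and Ltb (0.98). Sash3 is a lymphocyte adaptor, C1ra a complement protease, Slamf8 a receptor of myeloid cells, Il27ra the receptor of IL-27 and Ltb, a TNF-family ligand like BAFF, encodes lymphotoxin beta. All 5 were above background on every array. Among those most like Tnfrsf13c were Pou2af1 (0.95), the B-cell coactivator, Pla2g2d (0.93), Tcf7 (0.91), a T-cell transcription factor, and Bank1 (0.90), a B-cell scaffold. Pou2af1 is counted in the plasma-cell list used here and so enters the relation of that list to Tnfrsf13c. Most like Tnfrsf13b were Ash2l (0.90), S100a3 (0.87), Tmed3 (0.85), Lsm2 (0.84) and Tspan31 (0.83), none of which is in a list used here. The values of Tnfrsf13c below background enter here too. These correlations share the arrays and their scaling and are descriptive.

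The cell-type lists themselves stood as follows between Fcgr2b-/- and wild-type kidneys, where 43.4% of all tested probes were higher, 2.64% were higher at an unadjusted p under 0.05, and the median change was -0.055. Of the 13 macrophage and monocyte genes 11 were higher, 10 of them at an unadjusted p under 0.05, with a median of 2.12, and the list mean ranged from 1.91 to 4.20 in Fcgr2b-/- and from 0.66 to 2.46 in wild-type kidneys. Lyz2 (lysozyme) was 3.21 higher (SE 0.80) and Adgre1, a classical macrophage surface marker, 2.56 higher (SE 0.78). Itgam and Ly6c2 went the other way, at -0.32 (SE 0.57) and -0.21 (SE 0.37). All 13 passed background on 4 or more arrays. Of 28 interferon-induced genes, all were higher, 6 of them at an unadjusted p under 0.05, with a median of 0.89, led by Oas2 at 2.27 (SE 0.83) and Oas1a at 1.86 (SE 0.60). No gene of either list was called.

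B-cell genes did not stand apart: 4 of 10 tested were higher, with a median of -0.12, from Cd79b at 1.23 (SE 0.76) to Fcrla at -1.48 (SE 0.68). The B-cell markers Cd79a and Blk were not above background on any array. The list mean ranged from -3.07 to -2.42 in Fcgr2b-/- and from -3.75 to -1.76 in wild-type kidneys. Plasma-cell genes were higher for 5 of 8 (median 0.13), T-cell genes for 10 of 11 (median 0.91), neutrophil genes for 5 of 6 (median 1.16) and dendritic-cell genes for 6 of 7 (median 0.44), with 0 called in each by limma and 0, 1, 1 and 1 at an unadjusted p under 0.05. The neutrophil marker Ngp was not above background on any array. Kidney genes were evenly split, with 6 of 12 higher and a median of -0.011. Whether these cell types have a part in the member levels was not tested beyond the correlations above.

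Between double-deficient and Fcgr2b-/- kidneys, a comparison that shares the Fcgr2b-/- arrays with the previous one, 11 of 13 macrophage genes and 27 of 28 interferon-induced genes were lower, with medians of -1.36 and -0.85 against 0.055 over all probes. Of these, 5 and 6 were lower at an unadjusted p under 0.05, against 1.16% of all probes, and 0 were called. Of 10 B-cell genes 8 were higher (median 0.39), where 57.5% of all probes were. Between Sting gt/gt and wild-type, 12 of 13 macrophage genes, 23 of 28 interferon-induced genes and 9 of 10 B-cell genes were higher, with medians of 0.34, 0.44 and 0.63 and 0 at an unadjusted p under 0.05, while 50.1% of all probes were higher. For the interaction, 12 of 13 macrophage genes and all 28 interferon-induced genes were below 0, with medians of -1.72 and -1.27 and 0 called, and 52% of all probes were above 0.

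Downstream of the receptors, 21 of 22 signalling genes had a probe and 20 were tested. Between Fcgr2b-/- and wild-type 17 were higher, against 43.4% of all probes, and 5 were higher at an unadjusted p under 0.05, against 2.64%, but 0 were called by limma. Traf1, an NF-kappaB-induced adaptor, was 1.53 higher (SE 0.51), and Nfkbie, an NF-kappaB inhibitor, 1.40 higher (SE 0.42, limma adjusted p = 0.81). Relb, the transcription factor of the non-canonical pathway that BAFF engages, was 1.24 higher (SE 0.45) and Nfkb2, its p100 partner, 0.83 higher (SE 0.37). Upstream, Map3k14, which encodes NIK, stood at 0.57 (SE 0.30), Traf3, which holds NIK down, at 0.36 (SE 0.26) and Traf2 at 0.36 (SE 0.26). The kinase subunits Ikbkg and Chuk had the lowest values, -0.60 (SE 0.47) and -0.41 (SE 0.33). Rela, p65 of the canonical pathway, was 0.46 higher and was the 1 gene of the 20 whose groups did not overlap, with Fcgr2b-/- higher, as was seen for 0.62% of all probes. Relb, Nfkb2, Map3k14, Traf3, Traf2 and Rela were picked for their place in the pathway, outside the rule for named genes and after their values were seen.

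In double-deficient against Fcgr2b-/- kidneys 16 of the 20 signalling genes were lower, 3 of them at an unadjusted p under 0.05, including Traf1 at -1.18 (SE 0.51) and Bcl3 at -1.02 (SE 0.48). The list median was -0.51, against 0.055 over all tested probes. Of all tested probes 57.5% were higher, and 1.16% were lower at an unadjusted p under 0.05. This comparison shares the Fcgr2b-/- arrays with the one against wild-type. The interaction had a median of -0.59, with Traf1 at -1.54 (SE 0.73) and Relb at -1.53 (SE 0.64), and 0 called. Between Sting gt/gt and wild-type the median was 0.23, with Relb at 0.61 (SE 0.45) and Nfkb1 at 0.55 (SE 0.36) the highest, and between double-deficient and wild-type it was 0.062.

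Of the survival genes of the BCL-2 family and Pim2, 8 of 10 were tested. Bcl2a1d, a pro-survival gene that NF-kappaB induces, was 3.05 higher in Fcgr2b-/- than in wild-type kidneys (SE 0.81, limma adjusted p = 0.60) and 1.88 lower in double-deficient than in Fcgr2b-/- kidneys (-1.88, SE 0.81). Close copies of this gene could bind the same probe, and of these Bcl2a1a and Bcl2a1b had no probe of their own. Bmf, which promotes cell death, was 0.71 higher in Fcgr2b-/- than in wild-type (SE 0.38), and Bcl2 and Bcl2l1 were at -0.17 (SE 0.29) and 0.04 (SE 0.42). In all, 7 of 8 were higher in Fcgr2b-/- than in wild-type kidneys, 2 at an unadjusted p under 0.05 (Bcl2a1d and Bbc3). By limma 0 were called. Bbc3 (0.65, SE 0.27) and Bcl2l11 (0.43, SE 0.31) promote cell death, as Bmf does, so the count mixes genes for and against survival. Of all tested probes 43.4% were higher, and 2.64% were higher at an unadjusted p under 0.05.

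Furin, which cuts BAFF and APRIL into their soluble forms, differed by 0.0048 between Fcgr2b-/- and wild-type (SE 0.46). Adam10, which sheds TACI, and the related Adam17 were at 0.11 (SE 0.36) and 0.29 (SE 0.37). Psenen, Ncstn and Aph1a, 3 subunits of the gamma-secretase that cuts BCMA, were at -0.18, -0.12 and 0.11. Sdc1, syndecan-1, the plasma-cell marker to which APRIL and TACI bind through heparan sulfate, had the highest value of the 9 tested processing genes, 0.65 (SE 0.31). None of the 9 passed an unadjusted p under 0.05 in any of the 5 comparisons.

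**Figure D4:**
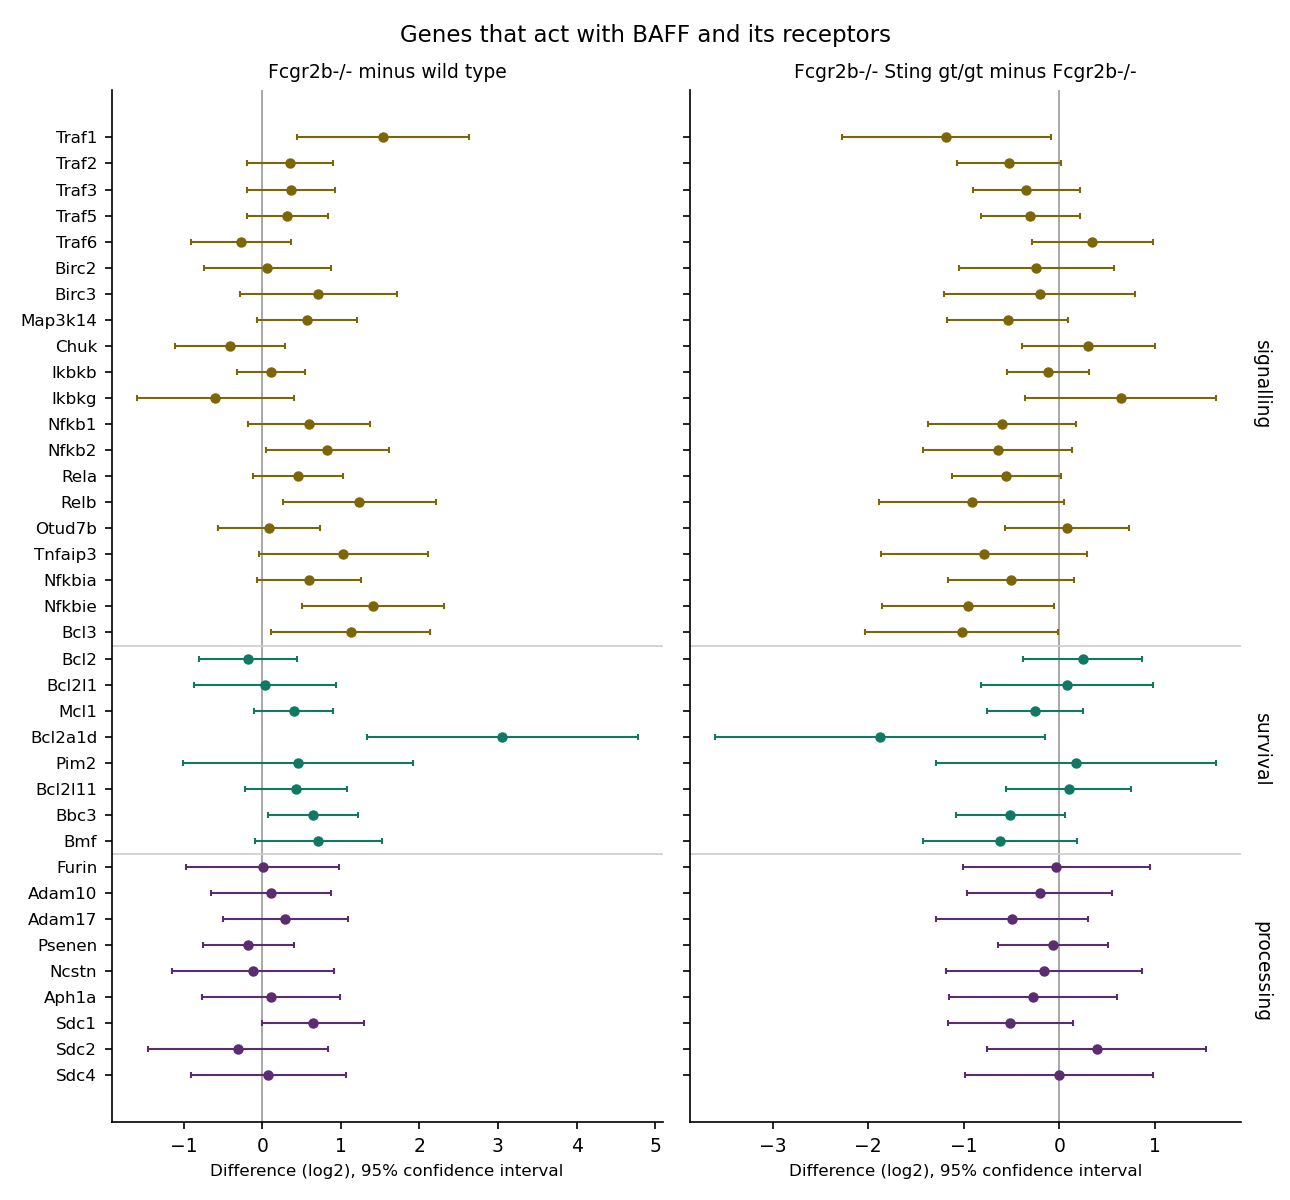
Differences in log2 level with 95% confidence intervals from the limma fit for the 37 tested genes of the BAFF signalling, survival and processing lists, Fcgr2b-/- minus wild-type on the left and double-deficient minus Fcgr2b-/- on the right, on axes of different range. Bcl2a1d lies farthest from 0 in both panels (3.05 and -1.88), and the intervals of all 9 processing genes include 0 in both.

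The wider TNF family was listed beside BAFF. Of 16 other TNF ligands 9 were tested, and 8 of them were higher in Fcgr2b-/- than in wild-type kidneys, with a median of 0.17. Of all tested probes 43.4% were higher. Tnfsf13b, a single gene, stood at 1.64 (SE 0.87). Ltb was 1.41 higher (SE 0.64) and Fasl 1.33 higher (SE 0.92), whereas Tnf was at -0.11 (SE 0.29). Whether Tnfsf13b differed from these ligands was not tested. The T-cell ligands Cd40lg, Cd70 and Tnfsf18 were not above background on any array. Of 22 other TNF receptors 18 were tested and 16 were higher, with a median of 0.37. Tnfrsf1b, TNF receptor 2, was 2.38 higher (SE 0.81) and Tnfrsf18, GITR, 1.82 higher (SE 0.84), while Relt was at -0.24 (SE 0.51). At an unadjusted p under 0.05, 1 ligand and 2 receptors were higher, against 2.64% of all tested probes, and 0 were called.

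In double-deficient against Fcgr2b-/- kidneys 8 of the 9 ligands and 13 of the 18 receptors were lower, led by Ltb at -1.20 (SE 0.64) and Tnfsf9 at -1.05 (SE 0.49) among the ligands and Tnfrsf18 at -1.51 (SE 0.84) and Tnfrsf1b at -1.20 (SE 0.81) among the receptors. Medians were -0.24 and -0.40, against 0.055 over all tested probes, of which 57.5% were higher. The Fcgr2b-/- arrays are again shared with the comparison against wild-type. Between Sting gt/gt and wild-type, 5 of 9 ligands and 13 of 18 receptors were higher, where 50.1% of all tested probes were. Ngfr at 1.04 (SE 0.55) and Tnfrsf1b at 0.94 (SE 0.81) were the highest receptors. No gene of these lists was called in any comparison.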

How the data were processed

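Whole-kidney RNA of 16 mice (4 per genotype) was measured on one-color Agilent arrays from 100 ng of total RNA. The authors deposited the scanner files, made with Agilent Feature Extraction 11.0, whose processed intensities are background-subtracted and not scaled between arrays, and a table of log2 values of the same arrays, in which arrays with the same replicate number share 1 distribution and whose scaling is not given in the sources used here (column medians 5.54, 4.93, 5.14 and 5.38 for replicates 1 to 4). Every column was matched to a sample.

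Control and outlier spots were left out (no spot was saturated), spots of a probe were averaged, and each log2 intensity was taken relative to its array's 75th percentile. Probes were named by RefSeq accession (32989 of 56605 probes). Probes that passed background on 4 or more of 16 arrays (35629) were fitted with limma 3.58.1 (lmFit, eBayes; R 4.3.3), a mean per genotype over all 16 arrays, with Benjamini-Hochberg adjustment. The interaction was (double-deficient minus Fcgr2b-/-) minus (Sting gt/gt minus wild-type). The methods' Mann-Whitney test was an alternative, since no adjusted p can pass with 4 mice a group. A gene was represented by its brightest tested probe. Exact permutation tests (two-sided, 70 relabellings) and correlations were run in Python 3.11.15 with scipy 1.17.1. The fit was checked on simulated data with independent normal noise and the same spread in every group. That check does not cover unequal spreads between groups or arrays that deviate together.

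Genes named were all members, and of each pathway or TNF list the 2 highest and 2 lowest per comparison, of each cell-type list the 2 with the largest change, and the 5 genes most like each member. One gene that this rule names is not reported here. Members and lists were chosen with earlier results of these data known. Lists held BAFF signalling, survival and processing genes, TNF ligands and receptors, markers of B, plasma, T, dendritic and kidney cells, neutrophils and macrophages, and interferon-induced genes. Replicates are separate mice. The number of arrays limits the precision. The arrays lay on 2 slides (wild-type 2 and 2, Fcgr2b-/- 3 and 1, double-deficient 1 and 3, Sting gt/gt 2 and 2).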

Additional observations from a re-analysis of the deposited data

How the results depend on the processing

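No member was called under any alternative run. Tnfsf13b stayed higher in Fcgr2b-/- than in wild-type kidneys and lower in double-deficient than in Fcgr2b-/- kidneys under every alternative fit that gave a value, the exception being the contrast of double-deficient and Fcgr2b-/- within slide 2, which was 0.61 (requiring all 16 arrays above background left Tnfsf13b and Tnfrsf13c untested). With each mouse left out in turn, these differences were 0.89 to 2.33 and -1.87 to -0.43. The probes called between Fcgr2b-/- and wild-type, 18 in the reported fit, were 5 with normexp, 7 in the authors' table, 0 when fitted on the groups compared alone, when all 16 arrays had to pass background, and by Mann-Whitney after adjustment, 3 with the animal's first label number as a random block, and 0 (without wild-type replicate 2) to 37 (without Fcgr2b-/- replicate 2) with 1 mouse left out. Between double-deficient and wild-type they were 1 with normexp, 1 with all 16 arrays required, 3 with the groups compared alone and 0 to 1 with 1 mouse left out, and 0 to 0 in the remaining comparisons. At an unadjusted Mann-Whitney p under 0.05 and 2-fold, 144, 41, 127 and 63 probes passed between Fcgr2b-/- and wild-type, double-deficient and Fcgr2b-/-, Sting gt/gt and wild-type, and double-deficient and wild-type.

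Tnfrsf13c changed sign in most comparisons, by the most between slides: -1.94 and 0.96 for double-deficient against Fcgr2b-/-, and -1.95 and 1.15 against wild-type. Across fits, Tnfrsf13c between double-deficient and Fcgr2b-/- was -0.064 with normexp. Between double-deficient and wild-type it was -0.048 with normexp, -0.0018 with quantile normalization and -0.063 in the authors' table, and between Fcgr2b-/- and wild-type -0.25 and -0.18 in the last 2. The Tnfrsf13b interaction was 0.093 with quantile normalization, 0.18 with median scaling, 0.091 in the authors' table and 0.000995 with the random block. With 1 mouse left out, Tnfrsf13c ranged from -0.37 to 0.73 between Fcgr2b-/- and wild-type, -0.52 to 0.67 between double-deficient and Fcgr2b-/-, -0.33 to 0.86 between double-deficient and wild-type and -1.16 to 0.034 for the interaction, and Tnfrsf13b from -0.15 to 0.043 between Sting gt/gt and wild-type and -0.18 to 0.012 for the interaction. The causes were not tested.

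By r, the relations of Tnfsf13b to the macrophage and interferon-induced genes stayed positive and past the threshold in every alternative. So did those of Tnfrsf13c to B-cell and plasma-cell genes, except over the 7 arrays with Tnfrsf13c above background (0.61 and 0.73). By rho, all 4 missed it within slide 2 (exact permutation test, adjusted p = 0.110 for Tnfsf13b with interferon-induced and 0.0536 with macrophage genes, and 0.0536 and 0.110 for Tnfrsf13c with B-cell and plasma-cell genes). Alternatives within slides, without Fcgr2b-/- arrays, adjusted for probes above background, with values below background tied and over detected arrays alone were added after seeing the data. So were the relations of member pairs and the split of the arrays at the gap in the macrophage mean. Other relations moved, in r. With quantile normalization Tnfrsf13b passed the threshold with macrophage (-0.57) and plasma-cell genes (-0.68), and Tnfrsf13c with neutrophil genes (0.57, and 0.61 in the authors' table). In that table Tnfrsf13b stood at 0.057 with interferon-induced and 0.0044 with neutrophil genes, and at 0.0014 with Tnfsf13b. With median scaling Tnfsf13b and neutrophil genes missed the threshold (0.63), and Tnfsf13b and Tnfrsf13b passed it (-0.53). With genotype means kept, Tnfsf13b and B-cell genes (0.49) and Tnfrsf13c and macrophage genes (0.51) missed it, and Tnfrsf13b turned positive with macrophage (0.21) and neutrophil genes (0.13). Within slides 1 and 2, Tnfsf13b and B-cell genes (0.63 and 0.71) and Tnfrsf13c and macrophage genes (0.78 and 0.66) missed it, as did Tnfsf13b and plasma-cell genes on slide 1 (0.77) and Tnfsf13b (0.15) and Tnfrsf13c (-0.065) with neutrophil genes on slide 2. Without the 4 Fcgr2b-/- arrays Tnfsf13b and neutrophil genes missed it (0.51), and Tnfrsf13b passed it with interferon-induced (-0.77), macrophage (-0.73), plasma-cell (-0.86) and neutrophil genes (-0.73). Adjusted for probes above background, Tnfsf13b with B-cell (0.28), plasma-cell (0.49) and neutrophil genes (0.55) and Tnfrsf13c with macrophage genes (0.39) missed it, Tnfsf13b with Tnfrsf13c was at 0.36, and Tnfrsf13b was at 0.059 with Tnfsf13b and 0.022 with Tnfrsf13c. Over the arrays with the member above background, Tnfsf13b with B-cell (0.25) and plasma-cell genes (0.61) and Tnfrsf13c with macrophage genes (0.76) missed it.

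With the replicate number as a block, 16 probes were called between Fcgr2b-/- and wild-type and 0 elsewhere, and Tnfsf13b differed by 1.64 as before. Same-numbered mice did not deviate together (r of -0.60 to 0.69 over 24 pairs, 11 above 0.1, and 5 of 16 arrays closest to their own number), so the numbers were not taken to pair the mice. Signal over background limits Tnfrsf17, on 1 array, and Tnfrsf13c, on 7.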
